A study of Mus musculus with 6 samples.

Results

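The genes described are 10 genes of the contractile apparatus of smooth muscle and myofibroblasts (Acta2, Actg2, Tagln, Cnn1, Myh11, Myl9, Tpm1, Tpm2, Mylk and Lmod1), taken from the expression table by their gene symbols. All 10 were among the 17794 genes listed. RNA was sequenced from whole mouse corneas injured with benzalkonium chloride (BAC), an eye drop preservative with detergent action that is used to model dry eye. One group then received luteolin, a plant flavone, for 10 days, and the other received vehicle for 10 days, with 3 RNA sequencing libraries in each. All 6 libraries carry the BAC injury; undamaged corneas were not analysed here, and the labels name no strain, sex, age or dose. The labels give the cell type as multiple, so each library is a mixture of epithelium, stroma and whatever adjoining tissue came with the cornea.

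Smooth muscle contracts when a light chain kinase phosphorylates the regulatory light chain of its myosin, which then pulls on actin filaments lined with tropomyosin, calponin and transgelin. In an injured cornea, stromal keratocytes can turn into myofibroblasts, which take on smooth muscle actin and other genes of this apparatus, contract the wound and lay down opaque matrix. The same genes are expressed by pericytes and smooth muscle of blood vessels and by the smooth muscle of the iris and ciliary body. The tropomyosin genes Tpm1 and Tpm2 also serve striated muscle and, as other splice forms, many cells that are not muscle, and Mylk has a long form found outside smooth muscle.

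Library totals ran from 16084855 to 16469699 estimated counts. The quasi-likelihood test of edgeR covered 13838 genes, of which 58.9% passed a Benjamini-Hochberg adjusted p under 0.05 (30.4% lower and 28.5% higher with luteolin), so a called gene was the usual outcome in this comparison. The lower genes were 51.6% of the calls with TMM scaling and 63.6% with library sizes only, which placed the median log2 fold change of all genes at -0.13 in place of -0.02. Defining corneal genes were abundant in every library: Krt12, the keratin of corneal epithelium, ran from 26862 to 27436 CPM (counts scaled to library size) with luteolin and from 12532 to 16716 CPM with vehicle. Keratocan (Kera), a proteoglycan of the corneal stroma, ran from 155 to 340 CPM with luteolin and from 25.2 to 251 CPM with vehicle. Skeletal muscle genes, which mark adjoining muscle, were high in luteolin 3, vehicle 1 and vehicle 2 and low in the other libraries, as described below with the genes they touch.

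The question was how the contractile genes differed between corneas treated with luteolin and with vehicle. Most of them fell with luteolin: 8 of the 10 passed the test downward, beside 30.4% of all tested genes. Mylk passed upward, beside 28.5%, and Cnn1 had too few counts to be tested, so 9 passed in either direction, beside 58.9%. The largest changes were in the actins, with Actg2 at a log2 fold change of -3.32 and Acta2 at -2.41, and the smallest downward change was -0.67, for Tpm2. The median of the 9 tested genes was -1.54, beside -0.02 over all tested genes. Groups did not overlap in any of the 9 (8 lower, beside 33.7% of all tested genes, and 1 higher, beside 33.8%). Actg2 and Lmod1 reached 10 counts in 3 libraries only through the vehicle group, so their place among the tested genes depended on being higher there. In whole tissue, fewer cells of a type and less RNA per cell cannot be told apart.

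**Figure D1:**
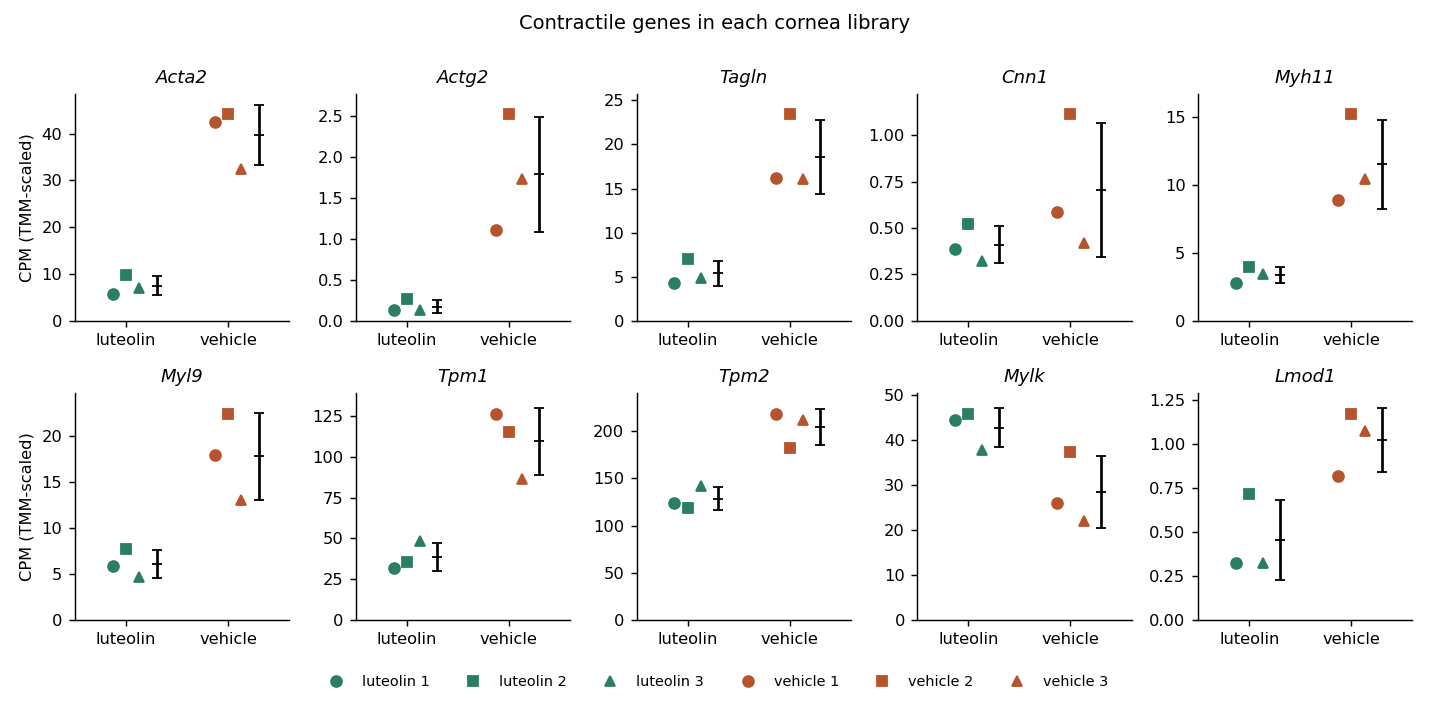
Each panel plots 1 contractile gene in CPM (TMM-scaled) in the 3 luteolin and 3 vehicle libraries, with the mean and SD drawn as a bar beside the points. All luteolin points lie below all vehicle points except for Cnn1, where they overlap, and Mylk, where they lie above.

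The sequence before the start of the gene is shown for Acta2, Myl9 and Tpm1, which fell, and for Mylk, which rose, because the CArG box of serum response factor and the MCAT motif of TEAD factors are known from promoters of this family. Each is 300 bases from RefSeq (GRCm38.p6), 250 before and 50 after 1 annotated start, 5′ to 3′ on the gene's strand. Capitals mark a CArG box (CC and GG around a run of A or T), a CArG box in which 1 base of that run is C or G, and the MCAT letters CATTCC, all searched on both strands. The files' build is mm9, so these positions are not those of the authors' reads.
Acta2, chr19:34255324-34255623, minus strand: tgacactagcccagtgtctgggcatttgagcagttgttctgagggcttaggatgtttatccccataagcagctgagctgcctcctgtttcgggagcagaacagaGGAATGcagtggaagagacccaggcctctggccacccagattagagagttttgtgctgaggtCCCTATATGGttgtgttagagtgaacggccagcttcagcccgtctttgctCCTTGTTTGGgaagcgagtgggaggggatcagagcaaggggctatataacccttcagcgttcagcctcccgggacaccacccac
Myl9, chr2:156775214-156775513, plus strand: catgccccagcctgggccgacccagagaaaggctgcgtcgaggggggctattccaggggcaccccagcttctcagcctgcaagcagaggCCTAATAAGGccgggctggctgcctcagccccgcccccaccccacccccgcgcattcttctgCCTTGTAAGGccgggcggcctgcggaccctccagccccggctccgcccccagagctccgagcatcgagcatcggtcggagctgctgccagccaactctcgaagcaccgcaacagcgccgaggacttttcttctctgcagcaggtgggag
Tpm1, chr9:67049164-67049463, minus strand: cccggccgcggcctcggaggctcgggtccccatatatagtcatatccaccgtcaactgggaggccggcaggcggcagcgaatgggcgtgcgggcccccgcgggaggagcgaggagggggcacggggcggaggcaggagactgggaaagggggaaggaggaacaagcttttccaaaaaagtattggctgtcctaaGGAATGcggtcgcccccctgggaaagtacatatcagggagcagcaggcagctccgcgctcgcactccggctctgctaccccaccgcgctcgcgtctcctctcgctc
Mylk, chr16:34784700-34784999, plus strand: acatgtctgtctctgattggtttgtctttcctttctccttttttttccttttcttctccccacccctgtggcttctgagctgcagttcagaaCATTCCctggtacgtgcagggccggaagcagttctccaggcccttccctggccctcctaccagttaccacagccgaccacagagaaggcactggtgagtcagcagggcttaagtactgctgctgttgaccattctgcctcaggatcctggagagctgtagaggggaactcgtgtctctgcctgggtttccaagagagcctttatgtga

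Of the 10 genes, 7 had an entry in that table; Actg2, Tagln and Myh11 had none. A strict CArG box was found in 1 of the 7, Myl9 (CCTAATAAGG, starting at -161 from the gene's start), beside 1.63% of 32851 promoters of the same length. With 1 C or G allowed, a search added after the sequences were seen, Acta2 had a pair (CCCTATATGG at -84 and CCTTGTTTGG at -34) and Myl9 a further one (CCTTGTAAGG at -99), beside 8.5% of promoters. The MCAT letters were found in 4 of the 7, in Acta2 at -146, Tpm1 at -56, Mylk at -158 and Lmod1 at -130, beside 14.7% of promoters. Mylk, which rose, and Acta2 and Tpm1, which fell, thus all held these letters. No motif match was found in Tpm2 or Cnn1, which says only that these letters are not in that window.

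Acta2 (gene ID 11475) encodes smooth muscle alpha actin, the defining gene of myofibroblasts. It stood at 5.74, 9.68 and 6.95 CPM in luteolin 1, 2 and 3, against 42.6, 44.1 and 32.4 CPM in vehicle 1, 2 and 3. The highest luteolin library was far below the lowest vehicle library, and the means were 7.46 ± 2.02 CPM with luteolin and 39.7 ± 6.37 CPM with vehicle (SD, n = 3 each). Luteolin libraries were on average 5.32-fold lower (log2 fold change -2.41, SE 0.205, edgeR adjusted p = 0.000134). Actg2 (gene ID 11468), the gamma actin of visceral smooth muscle, was scarce, with estimated counts of 2, 4 and 2 in the luteolin libraries and 19, 43 and 29 in the vehicle libraries. It fell 9.96-fold (log2 fold change -3.32, SE 0.494, edgeR adjusted p = 0.00118). Actg2 therefore had the larger fold in this fit and much the lower level of the actin pair, but its fold rests on few counts. Over 17 alternatives Actg2 ranged from -3.72 to -1.27, and Acta2 from -2.66 to -2.27, so the order of their folds was not fixed. Actg2 was the scarcer in every library. On the TPM scale, which allows for transcript length, its level was 3.17% to 4.51% of that of Acta2 with luteolin and 4.08% to 8.68% with vehicle.

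The myosin genes also fell, by less than the actins on the log2 scale. Myh11 (gene ID 17880), the heavy chain of smooth muscle myosin, stood at 2.77, 3.96 and 3.41 CPM with luteolin and at 8.88, 15.2 and 10.4 CPM with vehicle, 3.39-fold lower (log2 fold change -1.76, SE 0.248, edgeR adjusted p = 0.000913). Myl9 (gene ID 98932), the regulatory light chain that the kinase phosphorylates, stood at 5.87, 7.73 and 4.70 CPM with luteolin and at 17.9, 22.4 and 12.99 CPM with vehicle. It was 2.91-fold lower (log2 fold change -1.54, SE 0.251, edgeR adjusted p = 0.00173). Vehicle 2 was the highest vehicle library for both genes, and the groups did not overlap.

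Mylk (gene ID 107589), the kinase itself, went the other way. It stood at 44.5, 46.0 and 37.9 CPM with luteolin, against 26.0, 37.3 and 22.0 CPM with vehicle. The lowest luteolin library, 37.9 CPM, lay just above the highest vehicle library, 37.3 CPM. The log2 fold change was 0.59 (SE 0.188, edgeR adjusted p = 0.0293), and adjusted p ran from 0.000847 to 0.0928 over 17 alternatives. Its call was lost with library sizes only (0.47), upper quartile factors (0.49), limma-trend on log2(FPKM + 1) (0.45) or log2(FPKM + 0.1) (0.50), and without luteolin 1 (0.55), luteolin 2 (0.52), vehicle 1 (0.52) or vehicle 3 (0.42). Every one of those alternatives left it above 0. In GENCODE M21, 4.28% of the runs of 50 bases in its longest coding transcript also occur in E130310I04Rik or Gm21691 on the opposite strand, and these were not analysed here.

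Tagln (gene ID 21345) encodes transgelin, an actin-binding protein of smooth muscle. It stood at 4.32, 7.02 and 4.83 CPM with luteolin and at 16.2, 23.4 and 16.1 CPM with vehicle, 3.44-fold lower (log2 fold change -1.78, SE 0.233, edgeR adjusted p = 0.000663). It was the only one of the 10 with decimals in its deposited counts, in all 6 libraries. In GENCODE M21 its exons overlap those of Pcsk7 and Gm48529 on the opposite strand. Of the runs of 50 bases in its longest coding transcript, 48.3% also occur, on either strand, in transcripts of other genes. Of these shared runs, 688 were in Gm48529 and 59 in Pcsk7. No source used here states whether counting used strand. Pcsk7 too had decimals in its deposited counts in all 6 libraries, and some of the reads given to Tagln may come from these partners. Pcsk7, a proprotein convertase, did not pass (38.8 ± 0.656 CPM with luteolin, 40.8 ± 1.11 CPM with vehicle, SD, n = 3 each; log2 fold change -0.07). Gm48529, which holds most of the shared runs, was not analysed here.

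Cnn1 (gene ID 12797), calponin 1, an inhibitor of actomyosin that marks contractile smooth muscle, had estimated counts of 6, 8 and 5 with luteolin and 10, 19 and 7 with vehicle. The groups overlapped, and with no filter on low counts the log2 fold change was -0.77 (SE 0.495, edgeR adjusted p = 0.243). Lmod1 (gene ID 93689), leiomodin 1, which starts actin filaments in smooth muscle, had counts of 5, 11 and 5 with luteolin and 14, 20 and 18 with vehicle. It fell 2.23-fold (log2 fold change -1.16, SE 0.411, edgeR adjusted p = 0.0426), and adjusted p ran from 0.023 to 0.135 over 16 alternatives. Its call held without luteolin 2 (log2 fold change -1.65) and was lost when any other library was left out, with log2 fold changes between -0.97 and -1.30, as it was with DESeq2 (-1.16), with no filter (-1.15) and with limma-trend on log2(FPKM + 1) (-0.21).

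The tropomyosins, which line the actin filament and gate the access of myosin, had the highest TPM of the 10 in both groups. Tpm1 (gene ID 22003) stood at 32.0, 35.6 and 48.4 CPM with luteolin and at 127, 115 and 86.7 CPM with vehicle, 2.83-fold lower (log2 fold change -1.50, SE 0.189, edgeR adjusted p = 0.000559). Tpm2 (gene ID 22004) stood at 124, 119 and 142 CPM with luteolin and at 219, 183 and 212 CPM with vehicle, 1.59-fold lower (log2 fold change -0.67, SE 0.0963, edgeR adjusted p = 0.000982). Luteolin 3 was the highest luteolin library for both, and vehicle 3 was the lowest vehicle library for Tpm1 but not for Tpm2. On the TPM scale Tpm1 and Tpm2 together made up 76.1% to 85.1% of the summed level of the 10 genes with luteolin and 70.1% to 78.7% with vehicle.

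**Figure D2:**
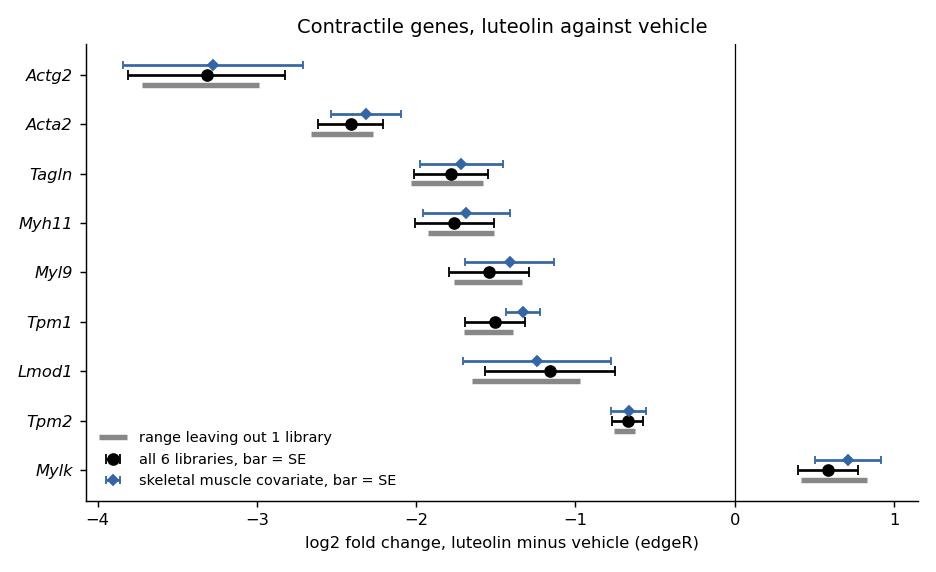
Log2 fold changes (luteolin minus vehicle) of the 9 tested genes: black points with SE from all 6 libraries, blue diamonds with SE from the fit with the skeletal muscle level as a covariate, and grey bars for the range when each library is left out in turn. Actg2 and Acta2 lie farthest below 0, Tpm2 is closest to 0 among the lower genes, and Mylk lies above 0 in every fit.

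The order of levels per length differed between the groups. With luteolin, on the TPM scale, Tpm2 came first at 136 ± 13.4, then Tpm1 at 38.6 ± 9.01, Mylk at 14.7 ± 1.62, Myl9 at 11.5 ± 2.94, Acta2 at 6.51 ± 1.72 and Tagln at 6.17 ± 1.62 (SD, n = 3). With vehicle, Tpm2 was at 223 ± 23.8, Tpm1 at 114 ± 24.3, Acta2 at 37.3 ± 7.56, Myl9 at 34.0 ± 9.34, Tagln at 21.4 ± 4.92 and Mylk at 9.72 ± 2.91 (SD, n = 3). Acta2 was thus below Mylk and Myl9 with luteolin and above both with vehicle, while Mylk was above Myl9, Acta2 and Tagln with luteolin and below all of them with vehicle. Myh11 (1.12 ± 0.213 TPM with luteolin and 3.67 ± 1.13 TPM with vehicle, SD, n = 3 each), Actg2, Cnn1 and Lmod1 were last in both groups. Among neighbours in the order, the libraries overlapped between Mylk and Myl9, between Acta2 and Tagln, and among Cnn1, Actg2 and Lmod1 with luteolin. With vehicle they overlapped between Acta2 and Myl9, between Myl9 and Tagln, between Myh11 and Actg2, and between Cnn1 and Lmod1.

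Ratios of 2 genes within a library do not depend on how libraries are scaled. Among 20 such ratios, chosen after their values were seen, 11 were lower and 4 higher with luteolin without overlap, beside 33.7% lower and 33.8% higher among the levels of single genes, so their number says little about these pairs. An exact two-sided permutation test of 3 against 3 libraries cannot go below p = 0.1, and those 15 gave that value (0.133 after Benjamini-Hochberg adjustment over the 20), so none can pass a threshold of 0.05. The log2 ratio of Acta2 to Tagln was 0.41, 0.46 and 0.52 with luteolin and 1.40, 0.91 and 1.01 with vehicle. That of Acta2 to Myh11 was 1.03, 1.28 and 1.01 with luteolin and 2.25, 1.54 and 1.63 with vehicle. Acta2 was thus lower also relative to those genes in each luteolin library. The ratio of Mylk to its substrate Myl9 was 2.91, 2.56 and 2.995 with luteolin and 0.54, 0.73 and 0.76 with vehicle, a difference of 2.14.

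Smooth muscle forms were set beside the related genes that serve the cytoskeleton of most cells. The nonmuscle myosin heavy chain Myh9 did not pass (log2 fold change -0.04) and Myh10 was higher (0.37), beside -1.76 for Myh11, and the log2 ratio of Myh11 to Myh9 differed by -1.69. The regulatory light chain Myl12a (-0.04) did not pass and Myl12b rose (0.29), beside -1.54 for Myl9. The heavy chains and the regulatory light chains therefore showed a lower share of the smooth muscle form in each luteolin library. Myl6 (0.01), which did not pass, is an essential light chain that smooth muscle myosin also uses, so the ratio of Myl9 to Myl6 does not measure that share. The tropomyosin Tpm3 fell by 0.19 and Tpm4 by 1.08 on the log2 scale, beside -1.50 for Tpm1 and -0.67 for Tpm2. The ratio of Tpm2 to Tpm4 was higher with luteolin, by 0.41, and that of Tpm1 to Tpm4 overlapped between groups (-0.43, exact permutation p = 0.2). Tagln2, the transgelin of nonmuscle cells, fell by 1.64, and the ratio of Tagln to Tagln2 also overlapped (-0.16, exact permutation p = 0.8). These family members were chosen after their values were seen.

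**Figure D3:**
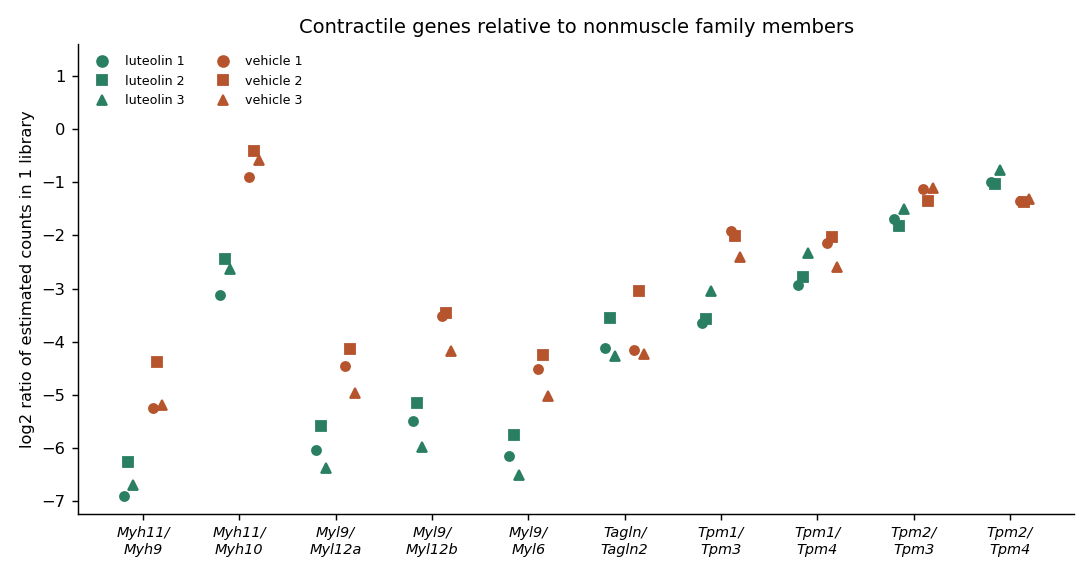
The log2 ratio of estimated counts (with 1 added to each) of a contractile gene to a related nonmuscle gene within each library, luteolin on the left and vehicle on the right of each pair. Myl6 is a light chain that smooth muscle shares. The ratios of Myh11 and Myl9 to their relatives, and of Tpm1 and Tpm2 to Tpm3, are lower in all 3 luteolin libraries, that of Tpm2 to Tpm4 is higher, and those of Tagln to Tagln2 and Tpm1 to Tpm4 overlap.

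Other genes of the apparatus were read from a list of 29 further contractile and cytoskeletal genes, of which 28 were tested. Of these 16 fell, beside 30.4% of all tested genes, 5 rose, beside 28.5%, and 7 missed the threshold, and the median log2 fold change was -0.65, beside -0.02 over all genes. The 4 with the smallest p-values all fell. On the log2 scale Vim, the intermediate filament vimentin, fell by 2.87 and Actn1, an alpha-actinin, by 3.10. Tpm4 fell by 1.08 and Pdlim7, an actin-associated adaptor, by 1.81. Vim stood at 68.7, 72.7 and 58.7 CPM with luteolin and at 447, 558 and 463 CPM with vehicle. The smooth muscle genes Smtn, smoothelin, and Cald1, caldesmon, had log2 fold changes of -2.12 and -1.51, and Des, desmin, which striated muscle also expresses, did not pass (-1.95). The 5 that rose, Ppp1r12a, Ppp1r12b, Rock2, Myl12b and Myh10, had log2 fold changes between 0.29 and 0.98, and their share of the list was below that of all tested genes. Ppp1r12a (0.63) and Ppp1r12b (0.98) are regulatory subunits of myosin phosphatase, and Rock2 (0.53) is a kinase that inhibits it. The number of higher genes was 3 without luteolin 3 or vehicle 1 and 3 with upper quartile factors, library sizes only or limma-trend. Members other than the 4 of smallest p were chosen after their values were seen.

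Serum response factor, its partners and other regulators of transcription came next, not all of them known to drive these genes. Serum response factor (Srf), which binds the CArG box of contractile genes, stood at 45.5, 47.5 and 54.2 CPM with luteolin and at 42.5, 40.3 and 48.0 CPM with vehicle and did not pass (log2 fold change 0.17). Its actin-sensing partners Mrtfa and Mrtfb did not pass either (-0.00 and -0.12), and Myocd, myocardin, the partner in smooth muscle, was between 0.065 and 0.761 CPM over the 6 libraries and was not tested. Of the 10 tested genes in this list of 12, 3 fell and 4 rose, close to the 30.4% and 28.5% of all tested genes, and 3 did not pass (median log2 fold change 0.08). Those with the smallest p-values were Tead3 (0.79), Yap1 (0.51), Tead4 (-2.14) and Hexim1 (0.37), of which TEAD factors bind the MCAT motif together with Yap1. A p that misses the threshold does not show that Srf did not differ.

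Genes of the myofibroblast's matrix and of TGF-beta signalling, the best known inducer of Acta2, were lower in the same libraries. Of 17 tested, 12 fell, beside 30.4% of all tested genes, and 5 missed the threshold, and the median log2 fold change was -1.59. The count of higher genes was 0 by edgeR's test and by DESeq2, 1 at an unadjusted p under 0.05 (Smad3, a signal transducer, 0.21), and 1 without vehicle 2, with no filter and with the replicate block. Tnc, tenascin-C, fell by 4.94, Postn, periostin, by 2.53, the ligand Tgfb1 by 1.22 and the receptor Tgfbr2 by 1.55 on the log2 scale. Tgfb1 stood at 19.1, 22.2 and 21.9 CPM with luteolin and at 43.2, 53.5 and 51.0 CPM with vehicle. Keratocytes, the cells that give rise to corneal myofibroblasts, were read from 11 genes, of which 4 fell, beside 30.4% of all tested genes (Cd34 by 2.08, Thy1 by 2.06, Col1a2 by 1.04 and Ogn by 1.23) and 7 did not pass (median of the 11 -1.04). The stromal genes Kera (1.26) and Angptl7 (0.03) were above 0 and were among the 7. The number that fell was 2 without luteolin 1, luteolin 3, vehicle 1 or vehicle 2 and 7 without vehicle 3, and 2 rose without vehicle 2.

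The genes whose pattern over the 6 libraries was most like that of Acta2 were sought by the root mean square difference of log2 CPM, each gene centred on its mean. Among 11124 genes averaging at least 5 CPM, the nearest were Postn (0.0984), Cercam (0.14), Slc7a6 (0.14), Bin1 (0.15) and Mfap5 (0.152). Postn stood at 34.0, 50.05 and 35.5 CPM with luteolin and at 251, 245 and 195 CPM with vehicle, so luteolin 2 was the highest of its group for both genes and vehicle 3 the lowest. The nearest contractile gene, Tagln, ranked 152 for Acta2 (0.355), and Mylk ranked 9756 (1.54). For Myh11 the nearest were Lrrc17 (0.0898), Htra3 (0.109), Adgrf5 (0.112), Tagln (0.125) and Hcls1 (0.135). Tagln was therefore nearer to Myh11 than to Acta2. The distance includes the difference between groups, so nearness partly restates the log2 fold changes (Tagln -1.78, Myh11 -1.76 and Acta2 -2.41).

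Markers of blood vessels were lower in the same libraries as the contractile genes. Mural cells, the pericytes and smooth muscle around vessels, were read from 10 genes, of which 8 were tested. Of these 6 fell, beside 30.4% of all tested genes, 1 rose, beside 28.5%, and 1 missed the threshold. The median log2 fold change of the 8 was -2.51. Rgs5, a pericyte gene, fell by 3.33, Mcam by 3.07 and Abcc9 by 2.66 on the log2 scale, while Notch3, which is expressed in other cells too, rose by 0.86. The mean log2 CPM of the 10 was 1.47 to 1.85 with luteolin and 3.30 to 3.95 with vehicle, and their summed level was 279 to 288 CPM with luteolin and 317 to 469 CPM with vehicle, of which Notch3 alone gave 236 to 244 CPM with luteolin and 129 to 139 CPM with vehicle. All 10 genes of blood endothelium fell, beside 30.4% of all tested genes (Egfl7 by 2.86, Tie1 by 2.32, Cdh5 by 3.18 and Vwf by 2.75, median log2 fold change -2.74). The summed level of these 10 was 26.2 to 37.4 CPM with luteolin and 172 to 275 CPM with vehicle. The log2 ratio of Acta2 to Rgs5 was -1.09, -0.82 and -0.85 with luteolin and -1.76, -2.03 and -1.60 with vehicle, so Acta2 was higher relative to Rgs5 in each luteolin library. This did not hold for Pdgfrb, another gene of the mural list, which fell by 1.70 on the log2 scale. The ratio of Acta2 to Pdgfrb differed by -0.74 and overlapped between the groups (exact permutation p = 0.2). The ratio of Acta2 to the endothelial Pecam1 overlapped between the groups (difference 0.19, exact permutation p = 0.6). That to Postn overlapped too (0.12, exact permutation p = 0.2). Postn had been found as the gene nearest to Acta2 over these same libraries, so a small difference followed from that choice. Macrophage genes were lower in the same libraries too. All 9 tested fell, beside 30.4% of all tested genes, with a median log2 fold change of -3.01. Those with the smallest p-values were Mrc1 (-3.40), a mannose receptor, and the complement genes C1qb (-3.18), C1qc (-3.01) and C1qa (-2.91). The summed level of the 9 was 46.3 to 74.9 CPM with luteolin and 402 to 788 CPM with vehicle. No marker of these 3 lists was at 0 in any library, and the part of vessels and of macrophages in the lower contractile genes was not tested.

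**Figure D4:**
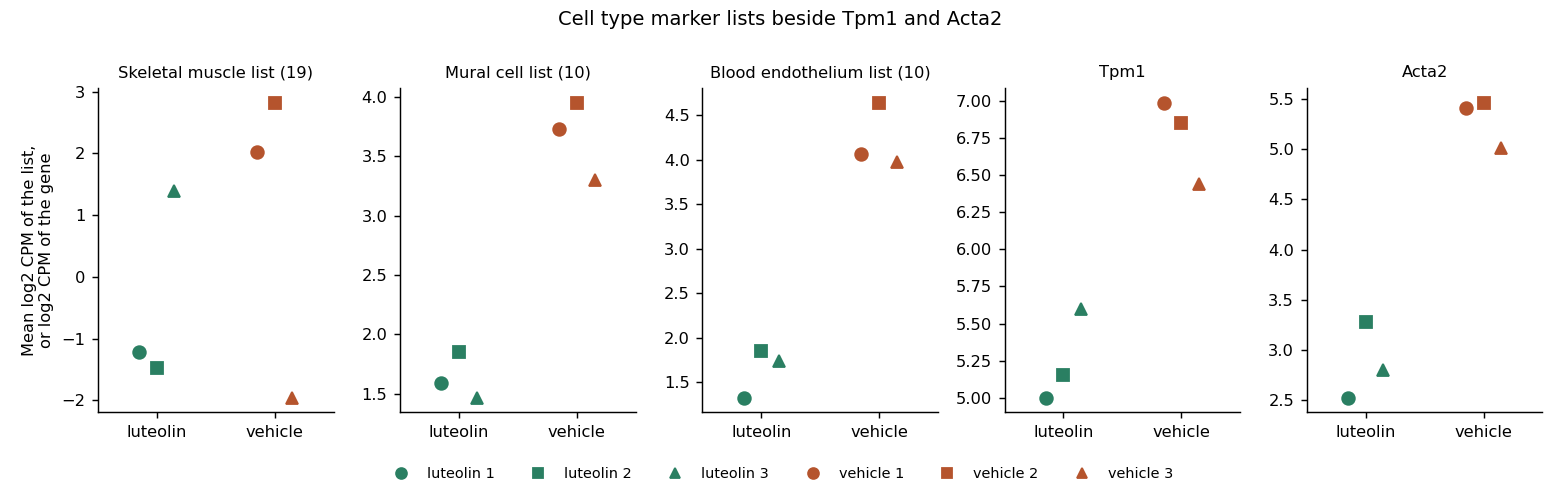
The mean log2 CPM of 3 marker lists and the log2 CPM of Tpm1 and Acta2 in each library. The mural and endothelial lists separate the groups as Tpm1 and Acta2 do, while the skeletal muscle list is high in luteolin 3, vehicle 1 and vehicle 2 and low in luteolin 1, luteolin 2 and vehicle 3.

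Libraries of both groups held skeletal muscle RNA in differing amounts. Averaged over 19 muscle genes, log2 CPM was -1.22, -1.47 and 1.39 in luteolin 1, 2 and 3 and 2.01, 2.81 and -1.96 in vehicle 1, 2 and 3, with summed levels of 19.3 to 114 CPM with luteolin and 16.3 to 273 CPM with vehicle. Tnni2, a troponin gene, did not follow this pattern (log2 fold change 0.002). It alone gave 13.9 to 18.6 CPM with luteolin and 13.3 to 17.4 CPM with vehicle, most of the sum in the low-muscle libraries. Between 1 and 9 of the 19 were at 0 in a library, and Ckm, muscle creatine kinase, was at 0 in luteolin 2 and vehicle 3. Of 14 tested, 0 passed edgeR's test, beside 58.9% of all tested genes, and 0 had an unadjusted p under 0.05. Log2 fold changes were -1.42 for Neb, -2.77 for Ckm, -2.47 for Myh1 and -2.44 for Atp2a1, with a median of -1.75. DESeq2 called 1 lower, and edgeR called 6 lower without vehicle 3 and 1 without luteolin 3. Striated muscle also expresses Tpm1. Luteolin 3, with the most muscle of its group, was the highest luteolin library for Tpm1 (48.4 CPM, beside 32.0 and 35.6 CPM). Vehicle 3, with the least muscle, was the lowest vehicle library for Tpm1 (86.7 CPM, beside 127 and 115 CPM). With the muscle level as a covariate the log2 fold change of Tpm1 was -1.33 (SE 0.107, edgeR adjusted p = 0.000468) and that of Tpm2 was -0.67 (SE 0.1095, edgeR adjusted p = 0.00361). Acta2 (-2.32), Actg2 (-3.28), Tagln (-1.72), Myh11 (-1.68), Myl9 (-1.41) and Mylk (0.71) also kept their calls with the covariate, and Lmod1 lost its call (-1.24, edgeR adjusted p = 0.0615). Pigment genes of the iris and ciliary body, whose smooth muscle expresses contractile genes, had summed levels of 7.98 to 14.7 CPM with luteolin and 5.60 to 36.8 CPM with vehicle. Of 3 tested pigment genes (Tyrp1 -1.65, Dct -1.02 and Pmel -0.27 on the log2 scale) 0 passed the test of edgeR, beside 58.9% of all tested genes. With DESeq2 0 passed too, and 0 had an unadjusted p under 0.05 in edgeR's test. Still, 4 of those then tested were lower without vehicle 3 and 1 without luteolin 2. The part of muscle and of iris or ciliary tissue in the contractile genes, Tpm1 included, was not tested beyond these fits.

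A second readout came from the length that the deposited count and FPKM of a gene imply together. For a gene with several transcripts it can vary with the mixture assigned to it. It is not the length of a transcript itself. For Myl9, whose 1 coding transcript in GENCODE M21 has 1128 bases, it was 762 to 781 bases over the 6 libraries. This length was greater with luteolin in most genes: of 9338 genes with at least 3 FPKM in each library, 59.7% were longer and 1.64% shorter without overlap, with a median difference of 0.633%. The same direction in 5 of 6 contractile genes is therefore not particular to them, and its size is given beside that of the other genes. For Acta2 it was 1661, 1675 and 1690 bases with luteolin and 1554, 1509 and 1621 bases with vehicle, 7.3% longer with luteolin, and 3.09% of those genes had a larger absolute difference. For Tpm1 it was 1485, 1482 and 1448 bases with luteolin and 1409, 1384 and 1439 bases with vehicle (4.37% longer, with 6.93% of genes larger), and luteolin 3 and vehicle 3 were the closest libraries of the groups. For Tpm2 it was 1373, 1408 and 1386 bases with luteolin and 1330, 1358 and 1333 bases with vehicle (3.63% longer, with 9.13% of genes larger). Tagln (0.884%, with 42.5% of genes larger) and Myl9 (1.64%, with 23.6% larger) were also longer in every luteolin library, and Mylk overlapped between the groups (-0.11%). GENCODE M21 lists 2 coding transcripts of Acta2, of 826 and 2035 bases, 16 of Tpm1, 4 of Tpm2 and 1 of Myl9, but no source used here names the annotation that the authors counted. Counts per transcript were not analysed here, and the source of the differences in implied length was not tested.

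**Figure D5:**
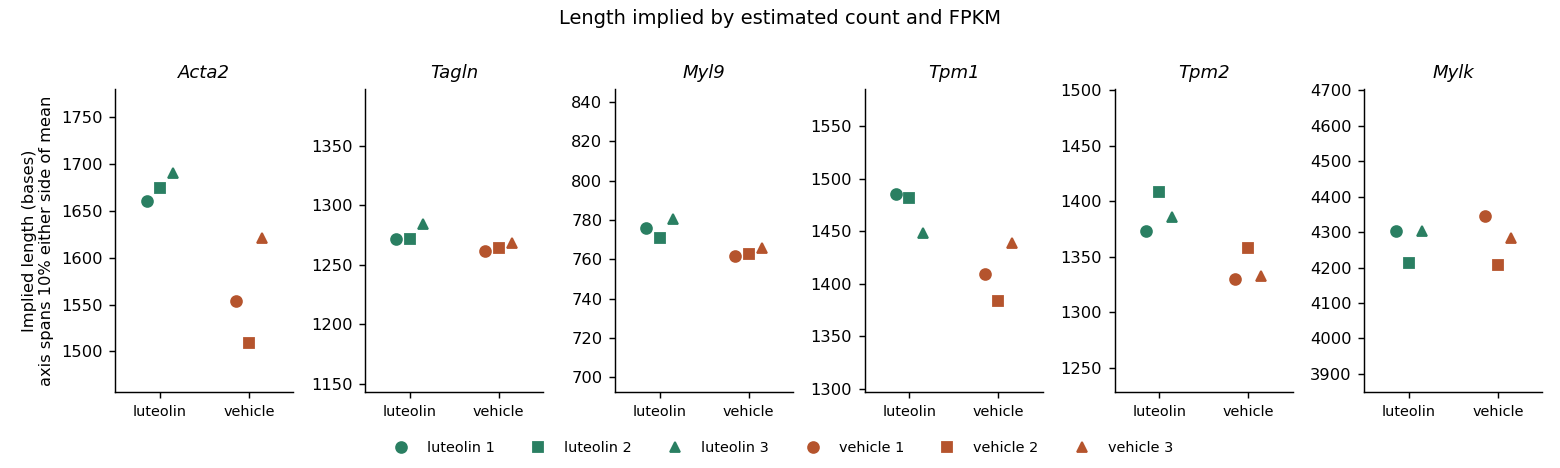
The length in bases implied by estimated count and FPKM for 6 contractile genes in each library. Each axis spans 10% either side of the gene's mean. Implied length is greater in all luteolin than in all vehicle libraries for all but Mylk, as for 59.7% of the 9338 genes measured. The gap is widest for Acta2 (7.3%).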

How the data were processed

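Frozen whole corneas yielded RNA by Trizol, from which TruSeq libraries were prepared, per the labels' protocols, and samples were grouped by title. Bowtie2 2.2.5 and RSEM 1.2.12 are listed, with the build mm9 and no roles, in the submitters' processing notes. The authors deposited estimated counts (16084855 to 16469699 per library), FPKM, TPM and a normalized count signal that was not used in tests, per the file headers; 8 columns of group averages were not used. No 2 libraries of a group were alike within sampling noise (chi-square over degrees of freedom between 6.3 and 30.3). Whether each library is a separate animal is not stated, and p-values therefore reflect only how these samples vary, which may be technical variation.

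Estimated counts were rounded and tested with edgeR 4.0.16 (R 4.3.3): filterByExpr (minimum count 10, minimum total 15) kept 13838 genes, scaling was by TMM, the quasi-likelihood test had no replicate block, and Benjamini-Hochberg adjustment covered all tested genes (threshold 0.05). Log2 fold changes are given as luteolin minus vehicle, with SE = change / square root of F. CPM uses the TMM factors, and list means use log2 CPM with a prior count of 2. Alternatives were DESeq2 1.42.0, other scalings and filters, robust dispersion, the replicate block, limma-trend (limma 3.58.1) on log2 FPKM, a skeletal muscle covariate (the list's mean log2 CPM) and leaving out each library. The genes and lists were chosen with earlier results of these data known. By rule, all 10 genes are named, with the 4 tested members of smallest p in each further list that is described and the 5 genes nearest to Acta2 and to Myh11; other genes (Krt12, Kera, Pcsk7, family members, ratios) were chosen after their values were seen. In lists for conjunctiva and corneal epithelium, 3 of 3 and 1 of 8 tested genes were lower, beside 30.4% of all tested genes. In the same lists 0 and 7 were higher, beside 28.5%.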

Additional observations from a re-analysis of the deposited data

How the results depend on the processing

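Acta2, Actg2, Tagln, Myh11, Myl9, Tpm1 and Tpm2 kept their direction and their call in all 17 alternatives, with log2 fold changes from -2.66 to -2.27 for Acta2, -3.72 to -1.27 for Actg2, -2.03 to -1.58 for Tagln, -1.92 to -1.05 for Myh11, -1.76 to -1.34 for Myl9, -1.70 to -1.33 for Tpm1 and -0.84 to -0.63 for Tpm2; the values nearest 0 for Actg2 and Myh11 came from limma-trend on log2(FPKM + 1), whose pseudocount shrinks changes of low genes. The number of the 10 genes that were lower was 7 or 8 throughout, and the missing call was that of Lmod1. The number that were higher was 1, and it was 0 with upper quartile factors, library sizes only and either limma-trend fit, and between 0 and 1 when a library was left out; Mylk stood at 0.83 without vehicle 2. With the replicate number as a block, 8 genes were lower, 1 was higher and 7934 of all genes were called, beside 8157 without it. Same-numbered libraries did not deviate together (correlations -0.15, 0.0267 and 0.0121 for numbers 1, 2 and 3), so the numbers were not taken as pairs; under the block 8 keratocyte genes were lower and 1 higher. Cnn1, reported from the fit with no filter, stayed short of the threshold in the 5 other fits that tested it (-1.05 to -0.63). Counting error is largest for Cnn1, Actg2 and Lmod1, which had 20 or fewer counts in most libraries.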
